A study of Rattus norvegicus with 82 samples.

Results

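The genes described here mark serotonergic neurons, the cells of the raphe nuclei that make serotonin, or serve the making, packing and breakdown of serotonin and the other monoamines. They are Slc6a4, Fev, Ddc, Slc18a2, Gch1, Maoa and Maob, found by their symbols in the platform's annotation. These 7 genes, of 14217 genes named by 1 symbol, were measured by 11 probe sets of 31042 tested. Slc6a4 (1368348_at), Fev (1370707_at), Maoa (1370678_s_at) and Maob (1368514_at) had 1 probe set each. Ddc had 1368064_a_at and 1375317_at, Slc18a2 had 1369131_at, 1384933_at and 1369132_at, and Gch1 had 1387221_at and 1368503_at. For genes with several, the probe set with the highest mean, given first, stands for the gene unless another is named.

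The study measured total RNA of rat brain on 82 arrays, of which 80 carried a label for region, treatment and time of day. The treatments are labelled ADX, the usual short form of adrenalectomy or removal of the adrenal glands, pADX, whose letter p the labels do not explain, and Sham, the control operation. Times are labelled PM and AM. The dorsal raphe, locus coeruleus, hypothalamus, septum and amygdala each had 4 ADX, 4 pADX and 4 Sham arrays, with PM and AM in equal numbers. The hippocampus had 4 ADX, 2 pADX and 4 Sham arrays, and the frontal cortex 3 ADX, 4 pADX and 3 Sham arrays. Both pADX arrays of the hippocampus are labelled PM, and that label is in doubt. No source used here gives the strain, age, sex or interval after surgery. Nothing in the labels says whether arrays came from separate animals or from pools, or whether 1 animal gave several regions, so p-values measure the spread between arrays, which may in part be technical.

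Serotonin is made from tryptophan, which is hydroxylated with the help of the cofactor tetrahydrobiopterin and then decarboxylated. It is loaded into vesicles, released, taken back up by a transporter in the cell membrane, and broken down by monoamine oxidases on the outer mitochondrial membrane. The dorsal raphe is the main source of the serotonin fibres of the forebrain, while the locus coeruleus, nearby in the pons, is the main source of its noradrenaline. Slc6a4 encodes the serotonin transporter and Fev the ETS-family transcription factor also called Pet-1, and both are classical markers of serotonergic neurons. Ddc encodes the decarboxylase that makes both serotonin and dopamine, Slc18a2 the vesicular monoamine transporter, and Gch1 the first enzyme of tetrahydrobiopterin synthesis, all of which also serve dopaminergic and noradrenergic neurons. Of the monoamine oxidases, Maoa is strong in noradrenergic neurons, and Maob in serotonergic and histaminergic neurons and in astrocytes.

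RefSeq promoter windows of 300 bases, from 250 before to 50 after a gene's start on assembly GRCr8, were available for 6 of the 7 genes. Those of 4 genes are shown as examples. Fev and Slc18a2 varied with Slc6a4 among dorsal raphe arrays, Slc18a2 by Pearson r but not by Spearman rho. Ddc and Gch1, whose windows are not shown, did so by both. The other 2 shown, Maoa and Maob, are neighbours on chromosome X that differed between the nuclei in opposite directions. Capitals mark GGAA, the core of the DNA motif of ETS factors, and AGAACA, one arm of the glucocorticoid receptor motif, each on either strand, so that TTCC and TGTTCT are the same motifs on the other strand. The Fev window lies at chr9:83891669-83891968 on the minus strand, that of Slc18a2 at chr1:268399771-268400070 on the plus strand, that of Maoa at chrX:8681323-8681622 on the minus strand, and that of Maob at chrX:8490155-8490454 on the plus strand.
Fev: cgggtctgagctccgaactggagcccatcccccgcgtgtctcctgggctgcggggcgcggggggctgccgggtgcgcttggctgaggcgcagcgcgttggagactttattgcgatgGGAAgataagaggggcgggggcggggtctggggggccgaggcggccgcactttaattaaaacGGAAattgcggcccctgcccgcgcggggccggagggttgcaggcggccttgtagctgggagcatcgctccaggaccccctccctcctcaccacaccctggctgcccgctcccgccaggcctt
Slc18a2: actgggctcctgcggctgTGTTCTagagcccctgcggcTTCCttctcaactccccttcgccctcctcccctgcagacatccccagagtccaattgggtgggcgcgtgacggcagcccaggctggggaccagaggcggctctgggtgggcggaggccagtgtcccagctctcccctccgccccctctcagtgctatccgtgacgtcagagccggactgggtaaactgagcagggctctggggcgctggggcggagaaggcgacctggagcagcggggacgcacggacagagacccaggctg
Maoa: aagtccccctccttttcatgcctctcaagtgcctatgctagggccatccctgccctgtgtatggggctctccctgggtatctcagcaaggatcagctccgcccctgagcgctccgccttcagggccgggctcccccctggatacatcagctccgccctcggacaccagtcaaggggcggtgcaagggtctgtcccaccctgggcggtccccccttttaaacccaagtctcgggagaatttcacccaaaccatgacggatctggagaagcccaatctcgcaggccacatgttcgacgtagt
Maob: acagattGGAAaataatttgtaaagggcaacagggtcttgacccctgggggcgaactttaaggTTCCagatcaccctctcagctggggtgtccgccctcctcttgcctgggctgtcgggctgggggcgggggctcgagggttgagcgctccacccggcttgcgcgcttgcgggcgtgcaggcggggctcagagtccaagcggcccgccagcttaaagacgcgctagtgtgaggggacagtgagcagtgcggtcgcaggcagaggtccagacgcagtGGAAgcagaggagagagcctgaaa
GGAA occurred in 95.8% of 33469 rat promoter windows of the same length, and in those of Fev, Slc18a2 and Maob, as in most. The Maoa window held 0 matches to it. The longer ETS motif CCGGAA, which contains GGAA, was in 15% of all windows and in none of the 6 genes' windows. AGAACA was in 20.7% of all windows, and among the members only in that of Slc18a2. A match is a run of letters and not a measured binding site. In the RefSeq order of chromosome X, 0 genes lie between Maob and Maoa.

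Signals are given as log2 of quantile normalized intensity, and signals below 16 were set to that floor, which is 4 on the log2 scale. Where the arrays of a region lie at the floor, a fold against it is given as "at least". Different probe sets bind with different strength, so levels are compared between arrays and not between genes. The deposited arrays were in 2 scaling states. In one, the mean trimmed by 2% at each end was the same for all arrays, and in the other it varied from 34.1 to 171. The common state held 2 of 12 dorsal raphe arrays, both Sham PM, and 7 of 12 locus coeruleus arrays, among them 0 of 4 ADX and 4 of 4 Sham. The ratio of 3' to 5' beta-actin probe sets, a sign of RNA quality, ran from 3.12 to 6.03 in the dorsal raphe and from 3.07 to 3.94 in the locus coeruleus.

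The arrays of the 2 nuclei were first set against the markers of their labels. Slc6a4 was high in every dorsal raphe array, from 9.84 to 11.36, and so was Fev, from 6.56 to 7.18. Dbh, which makes noradrenaline from dopamine and marks the locus coeruleus, ran from the floor to 4.52 in the dorsal raphe, against 6.42 to 9.90 in the locus coeruleus. Slc6a2, the noradrenaline transporter, was at the floor in 10 of 12 dorsal raphe arrays, against 3 of 12 locus coeruleus arrays. The dorsal raphe arrays thus carried next to no Dbh signal, while Slc6a2 was weak in both nuclei, at most 5.18 in the locus coeruleus. Of the other noradrenergic markers listed, Phox2a averaged 4.11 in the dorsal raphe, Hcrtr1 5.99, Gal 7.56 and Th 8.54. One dorsal raphe array, Sham AM replicate 2, stood apart on the cerebellar markers, with a summed signal of 2288 over the 4 measured genes, against 146 to 431 in the other dorsal raphe arrays. On it Gabra6, a receptor subunit of cerebellar granule cells, was 9.24, where the median of the 12 dorsal raphe arrays was 4.45, and Pcp2 of Purkinje cells was 9.52. Its Slc6a4 was 10.92 and its Fev 6.92, within the range of the other dorsal raphe arrays. The locus coeruleus arrays, however, carried serotonergic signal in all 12 cases, with Slc6a4 between 8.11 and 10.65. Among them the array Sham PM replicate 2 combined the highest Slc6a4, 10.65, with a Dbh of 6.71. Sham AM replicate 2 had an Slc6a4 of 10.28 and a Dbh of 7.004. At the other end, locus coeruleus Sham AM replicate 1 had the lowest Slc6a4, 8.11, and the highest Dbh, 9.90. The array with the lowest Dbh, pADX AM replicate 1 at 6.42, had an Slc6a4 of only 9.74, near the locus coeruleus median of 9.66. The locus coeruleus array ADX PM replicate 1 stood apart on Ttr, a gene of the choroid plexus, at 11.92, against 5.04 to 9.21 in the other locus coeruleus arrays. The source name in the labels, which also opens the titles, calls both nuclei frontal cortex. Their regions were taken from the codes DR and LC later in the titles, which the description shares. In frontal cortex arrays Slc6a4 was at the floor in 9 of 10, and every array of the 2 nuclei lay at 8.11 or higher. The septum is likewise called frontal cortex and the hypothalamus left hippocampi, against their codes S and Hypo.

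Across the 7 regions, the serotonergic neuron genes fell into 3 patterns. Slc6a4 and Fev were detected well only in the 2 nuclei, Ddc, Slc18a2 and Gch1 were highest in the nuclei and next highest in the hypothalamus, and Maoa and Maob were strong in every region. limma's moderated F test among regions passed for 11 of the 11 probe sets (adjusted p at most 0.00448), and for 65.2% of all probe sets. In tissue RNA, fewer cells of a type and less RNA per cell cannot be told apart.

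Slc6a4 averaged 10.66 ± 0.44 in the dorsal raphe (SD, n = 12), 9.61 ± 0.66 in the locus coeruleus (SD, n = 12) and at most 4.15 in any other region. At the floor were 10 of 12 hypothalamus arrays, 9 of 12 of the septum, 11 of 12 of the amygdala, 7 of 10 of the hippocampus and 9 of 10 of the frontal cortex, and the highest of all reached 4.78, in the hippocampus. By the ratio of these means, the dorsal raphe exceeded those 5 regions by at least 91.5-fold, in the hippocampus, to at least 101-fold, in the amygdala. Fev averaged 6.86 ± 0.20 in the dorsal raphe (SD, n = 12) and 5.85 ± 0.48 in the locus coeruleus (SD, n = 12), with regional means of 4.03 to 4.15 elsewhere. For Fev the dorsal raphe exceeded the other 5 regions by at least 6.54- to at least 7.12-fold. For both genes the lowest locus coeruleus array still lay above every array of the other 5 regions, while the ranges of the 2 nuclei overlapped.

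**Figure D1:**
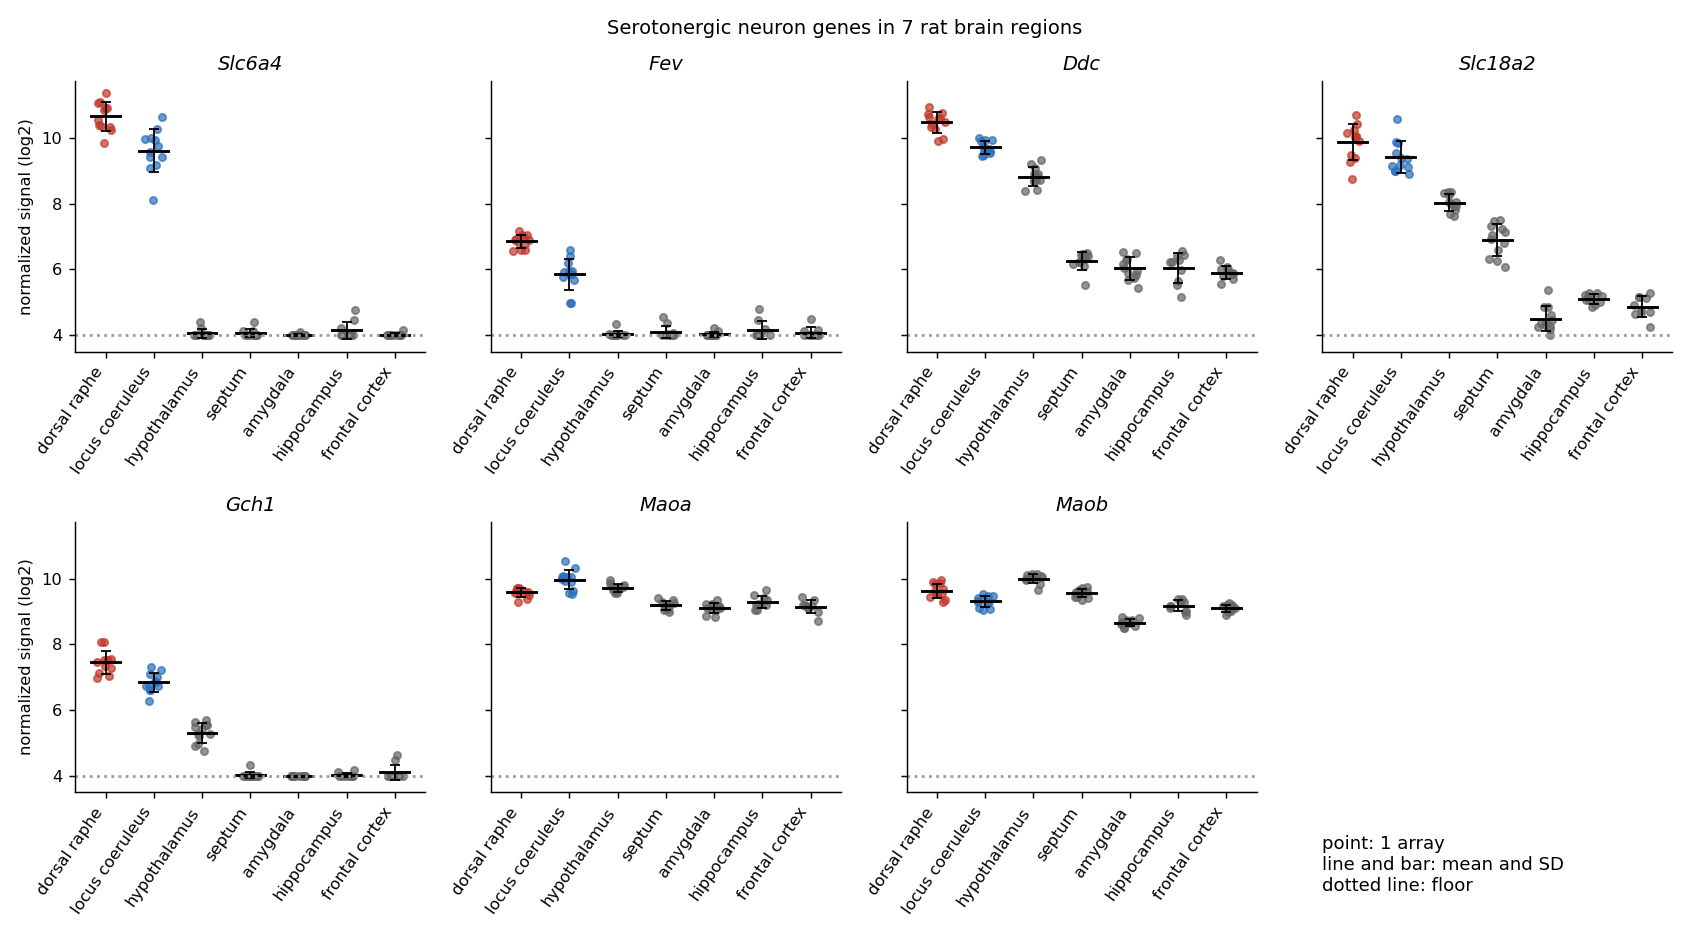
Normalized signal (log2, vertical axis) of each of the 7 genes in the 7 regions (horizontal axis), with 1 point per array, the mean as a line, the SD as a bar and the floor of 4 as a dotted line. Slc6a4 and Fev stand near the floor outside the dorsal raphe and locus coeruleus, Ddc, Slc18a2 and Gch1 step down through the hypothalamus, and Maoa and Maob stay between 8.49 and 10.55 throughout.

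Ddc averaged 10.47 ± 0.31 in the dorsal raphe, 9.72 ± 0.19 in the locus coeruleus and 8.82 ± 0.29 in the hypothalamus (SD, n = 12 each). The hypothalamus arrays, 8.38 to 9.33, lay below all locus coeruleus arrays. The septum, hippocampus, amygdala and frontal cortex followed with means of 6.26, 6.05, 6.03 and 5.90, and their ranges overlapped. The dorsal raphe was 3.13-fold above the hypothalamus and 18.5- to 23.3-fold above the other 4 regions. Slc18a2 had the same first 3 places, with 9.87 ± 0.55 in the dorsal raphe, 9.41 ± 0.49 in the locus coeruleus and 8.03 ± 0.26 in the hypothalamus (SD, n = 12 each). The septum came next for Slc18a2, with 6.89 ± 0.49 (SD, n = 12) and a range of 6.08 to 7.52, above every array of the hippocampus, frontal cortex and amygdala. Those last 3 regions overlapped, with means of 5.11, 4.87 and 4.50. Gch1 averaged 7.46 ± 0.35 in the dorsal raphe, 6.84 ± 0.29 in the locus coeruleus and 5.31 ± 0.30 in the hypothalamus (SD, n = 12 each). In the other regions Gch1 was near or at the floor, in 12 of 12 arrays of the amygdala and 11 of 12 of the septum. The second Gch1 probe set barely left the floor anywhere and averaged 4.28 in the dorsal raphe.

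The monoamine oxidases had a flatter profile. Maoa was highest in the locus coeruleus, 9.97 ± 0.30, then in the hypothalamus, 9.73 ± 0.12, and then in the dorsal raphe, 9.58 ± 0.13 (SD, n = 12 each). The hippocampus, septum, frontal cortex and amygdala had Maoa means of 9.29, 9.19, 9.14 and 9.11. Each region's range overlapped that of its neighbour in this order. Maob was highest in the hypothalamus, 10.003 ± 0.14, followed by the dorsal raphe, 9.63 ± 0.22, the septum, 9.56 ± 0.12, and the locus coeruleus, 9.31 ± 0.16 (SD, n = 12 each). The hippocampus and frontal cortex had Maob means of 9.18 and 9.10, and the amygdala was lowest, 8.66 ± 0.11 (SD, n = 12), with every array below every array of the other regions. From the lowest to the highest region mean, Maoa thus spanned 9.11 to 9.97 and Maob 8.66 to 10.003, against 4.01 to 10.66 for Slc6a4.

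Against the 5 regions outside the nuclei, 53 of 55 comparisons of member probe sets with the dorsal raphe passed. The exceptions were Maoa against the hypothalamus (log2 difference -0.15, SE 0.07, limma adjusted p = 0.13) and Maob against the septum (0.07, SE 0.06, adjusted p = 0.442). All that passed were higher in the dorsal raphe except Maob against the hypothalamus, which was 1.29-fold lower (log2 difference -0.37, adjusted p = 1.64e-06). Over all probe sets, 13% were higher in the dorsal raphe than in the hypothalamus and 12.9% lower. The share higher in the dorsal raphe was 19.8% against the septum, 21.2% against the amygdala, 22.2% against the hippocampus and 23.4% against the frontal cortex.

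The comparison of the dorsal raphe with the locus coeruleus sets 2 monoamine nuclei side by side. Both serotonergic markers were about 2-fold higher in the dorsal raphe, with smaller differences for Ddc, Gch1 and Maob, and Maoa was lower. In all, 8 of 11 probe sets passed, 7 higher and 1 lower, where 3.06% of all probe sets were higher and 3.34% lower. The median difference of the 11 was 0.58 log2 units, against 0.00 over all probe sets. Slc6a4 ran from 9.84 through a median of 10.70 to 11.36 in the dorsal raphe and from 8.11 through 9.66 to 10.65 in the locus coeruleus. The dorsal raphe was 2.07-fold higher (log2 difference 1.05, SE 0.14, limma adjusted p = 3.63e-08). The ranges overlapped, with 7 of 12 locus coeruleus arrays below every dorsal raphe array. Fev ran from 6.56 through 6.89 to 7.18 in the dorsal raphe and from 4.98 through 5.89 to 6.61 in the locus coeruleus. It was 2.02-fold higher in the dorsal raphe (log2 difference 1.02, SE 0.10, adjusted p = 1.62e-12). Without the dorsal raphe array high in cerebellar markers, 8 probe sets passed, and the differences were 1.02 for Slc6a4 and 1.004 for Fev. Without the locus coeruleus array high in Ttr, 8 passed, and the differences were 1.05 for Slc6a4 and 1.08 for Fev.

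**Figure D2:**
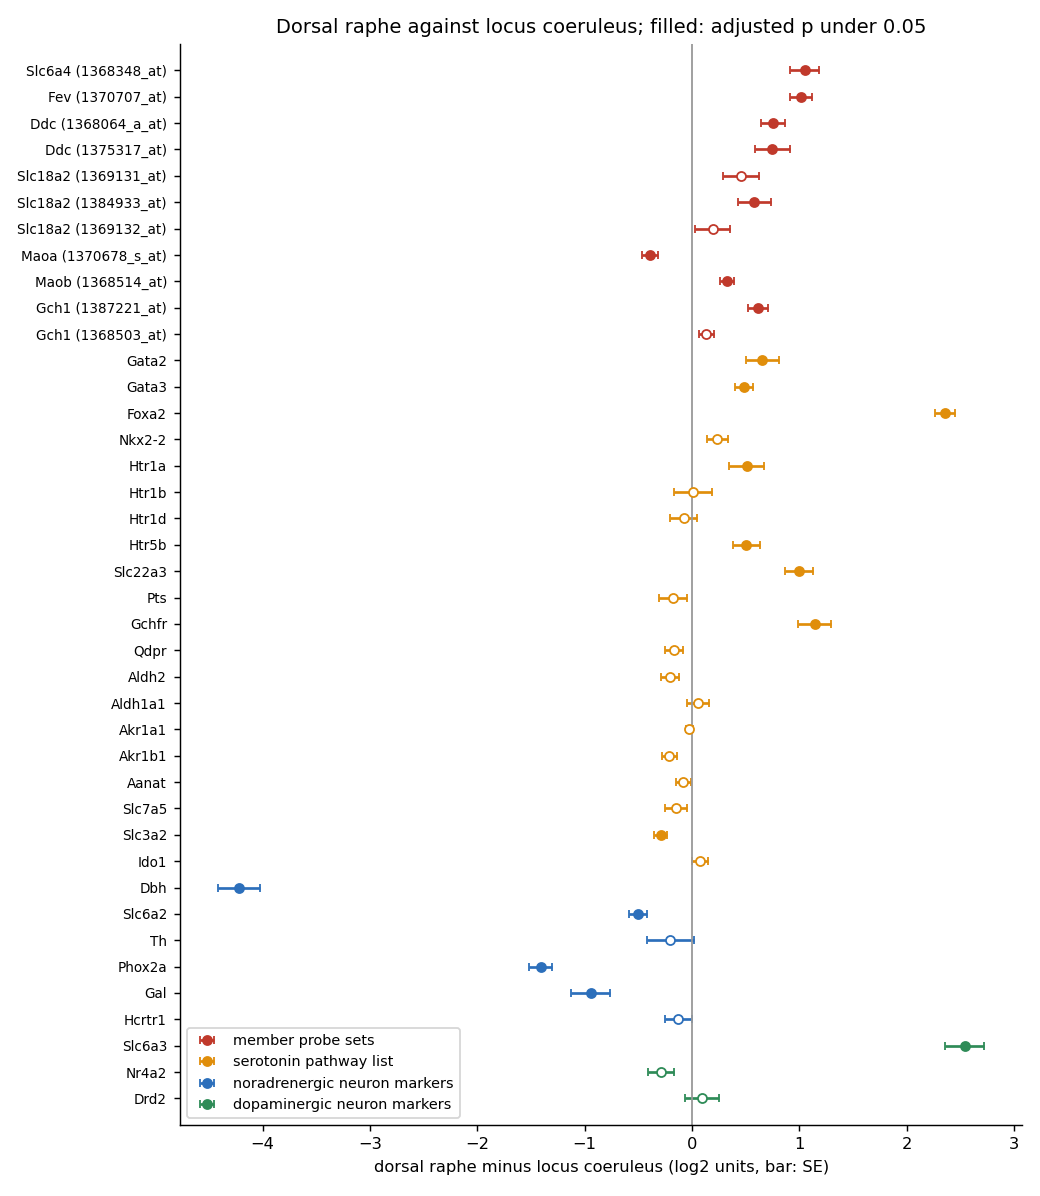
Difference of the dorsal raphe minus the locus coeruleus (log2 units, horizontal axis, bar SE) for the 11 member probe sets, the measured genes of the serotonin pathway list and the noradrenergic and dopaminergic markers (vertical axis), leaving out genes at the floor on every array of both nuclei. Filled points passed an adjusted p of 0.05. Slc6a4 and Fev lie near 1, Maoa at -0.39 and Dbh at -4.22.

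Among the enzymes, Ddc ran from 9.91 through 10.53 to 10.94 in the dorsal raphe and from 9.44 through 9.68 to 10 in the locus coeruleus. It was 1.69-fold higher in the dorsal raphe (log2 difference 0.76, SE 0.11, limma adjusted p = 1.45e-06), and 9 of 12 locus coeruleus arrays lay below every dorsal raphe array. The second Ddc probe set differed by 0.75 (SE 0.16, adjusted p = 0.00168). Gch1 ran from 6.98 through 7.49 to 8.08 in the dorsal raphe and from 6.29 through 6.80 to 7.32 in the locus coeruleus, 1.53-fold higher in the dorsal raphe (log2 difference 0.62, SE 0.10, adjusted p = 3.68e-06). Its second probe set, at the floor in 4 of 12 dorsal raphe and 7 of 12 locus coeruleus arrays, did not pass (0.14, SE 0.07, adjusted p = 0.323).

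The 3 probe sets of the vesicular transporter Slc18a2 were all higher on average in the dorsal raphe, and 1 of them passed. The one with the highest mean ran from 8.75 through 10.04 to 10.70 in the dorsal raphe and from 8.91 through 9.27 to 10.58 in the locus coeruleus. It did not pass, with a log2 difference of 0.46 (SE 0.17, limma adjusted p = 0.0897). The probe set 1384933_at passed with 0.58 (SE 0.15, adjusted p = 0.00867), and 1369132_at did not, with 0.20 (SE 0.16, adjusted p = 0.604). The first one passed when dorsal raphe pADX PM replicate 1 was left out (0.57, adjusted p = 0.0198) or locus coeruleus ADX PM replicate 2 (0.57, adjusted p = 0.02).

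Maoa and Maob went opposite ways. Maoa ran from 9.28 through 9.61 to 9.71 in the dorsal raphe and from 9.53 through 10.02 to 10.55 in the locus coeruleus, with 9 of 12 locus coeruleus arrays above every dorsal raphe array. It was 1.31-fold lower in the dorsal raphe (log2 difference -0.39, SE 0.07, limma adjusted p = 0.000113). Maob ran from 9.30 through 9.61 to 9.95 in the dorsal raphe and from 9.06 through 9.31 to 9.52 in the locus coeruleus. It was 1.25-fold higher in the dorsal raphe (log2 difference 0.33, SE 0.06, adjusted p = 0.000229). Astrocytes also hold Maob. Of 6 astrocyte markers, 0 were higher and 2 lower in the dorsal raphe, Gfap by 0.53 log2 units and Slc1a3 by 0.18 (differences -0.53 and -0.18), and the summed astrocyte signal ran from 5229 to 6772 in the dorsal raphe and from 6444 to 7733 in the locus coeruleus. Their part in the Maob difference was not tested.

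The scaling states were unequally spread over the 2 nuclei, so the differences were also taken within each state. Among arrays away from the common state, 10 of the dorsal raphe and 5 of the locus coeruleus, Slc6a4 differed by 0.997, Fev by 0.92, Ddc by 0.84, Gch1 by 0.52, Maoa by -0.50 and Maob by 0.35. Of these, Ddc (limma adjusted p = 0.0331) and Maoa (adjusted p = 0.0105) passed. Among arrays at the common state, 2 of the dorsal raphe and 7 of the locus coeruleus, the differences were 0.62 for Slc6a4, 1.11 for Fev, 0.64 for Ddc, 0.76 for Gch1, -0.22 for Maoa and 0.20 for Maob, and 0 passed. The direction of these 6 genes was the same in both states. Without normalization between arrays, Maob did not pass (0.10, adjusted p = 0.691).

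The wider serotonin pathway was described by a list of 30 genes, of which 22 were measured. Tph2, the tryptophan hydroxylase of neurons, and Lmx1b were not among them, since no probe set tested here carried their symbols. Of the 22, 7 were higher and 1 lower in the dorsal raphe than in the locus coeruleus, with a median difference of 0.01. The 7 comprised the transcription factors of the serotonergic lineage Gata2 (0.65, limma adjusted p = 0.00386), Gata3 (0.49, adjusted p = 6.08e-05) and Foxa2, a factor of the ventral midline. Foxa2 averaged 6.36 in the dorsal raphe and was at the floor in 12 of 12 locus coeruleus arrays, at least 5.12-fold higher. They also comprised the serotonin receptors Htr1a, the autoreceptor of raphe neurons (0.51, adjusted p = 0.04), and Htr5b (0.51, adjusted p = 0.00618). In the locus coeruleus Htr1a was at the floor in 3 of 12 arrays and Htr5b in 1 of 12. The last of the 7 were Slc22a3, a low-affinity monoamine transporter (at least 1.996-fold, adjusted p = 4.6e-08), and Gchfr, which regulates the enzyme made by Gch1 (2.21-fold, log2 difference 1.14, adjusted p = 1.08e-07). Slc3a2, the heavy chain of an amino acid transporter, was 1.22-fold lower (log2 difference -0.29, adjusted p = 0.000774). The transcription factor Nkx2-2 did not pass, with means of 6.962 in the dorsal raphe and 6.725 in the locus coeruleus. Nor did the receptors Htr1b (4.576 and 4.565) and Htr1d (4.621 and 4.698). Genes of tetrahydrobiopterin synthesis and recycling other than Gch1 did not pass, with -0.18 for Pts and -0.17 for Qdpr, nor did the aldehyde-handling enzymes, with -0.20 for Aldh2 and -0.21 for Akr1b1.

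Markers of other cells in the 2 nuclei were counted in the same fit. Of 6 noradrenergic markers, 4 were lower in the dorsal raphe, namely Dbh (at least 18.6-fold), Phox2a (at least 2.66-fold), Gal and Slc6a2, while Th, which dopaminergic neurons share, differed by -0.20 (limma adjusted p = 0.745). Of 6 dopaminergic markers, 1 was higher, Slc6a3, the dopamine transporter, which averaged 7.15 (SE of the difference 0.18) in the dorsal raphe and 4.60 in the locus coeruleus, at least 5.82-fold. Ddc, Slc18a2 and Gch1 also serve dopaminergic neurons, and the part of such cells in their differences was not tested. Of 4 cholinergic markers, 3 were lower. The summed cholinergic signal was only 149 on dorsal raphe ADX PM replicate 1 and 185 on Sham PM replicate 1. It ran from 441 to 750 on the other dorsal raphe arrays and from 743 to 1045 in the locus coeruleus. Of 3 ependymal and choroid plexus markers Ttr was lower. Of 2 histaminergic markers, Hrh3 was higher. The count was 0 among the measured markers of oligodendrocytes (5), microglia (4), endothelium (4), blood (2), pineal (2) and cerebellum (4), whose signal was high on 1 dorsal raphe Sham array, as given above.

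Within each nucleus, the members were set against its marker across the 12 arrays, in 11 planned relations with p-values from permutation tests, two-sided and adjusted over the 11. The permutations ran over all 12 arrays without regard to treatment or time of day. How many of all probe sets vary as closely with either marker was not counted, so such relations may not be particular to the members. In the dorsal raphe the members other than Maoa varied with Slc6a4. Fev followed it most closely (Pearson r = 0.87, Spearman rho = 0.85, adjusted permutation p = 0.00137 and 0.0111). For Ddc the values were r = 0.78 and rho = 0.81 (adjusted permutation p = 0.00719 and 0.0115), and for Gch1 r = 0.77 and rho = 0.76 (adjusted permutation p = 0.00719 and 0.0151). Slc18a2 had r = 0.80 and rho = 0.61 (adjusted permutation p = 0.00682 and 0.0545), and its r fell to 0.53 without the 2 arrays farthest from the median of Slc6a4. The r of Fev, Ddc and Gch1 without the 2 farthest arrays was 0.79, 0.74 and 0.65. Maob had r = 0.69 and rho = 0.66 (adjusted permutation p = 0.0239 and 0.0429), or 0.84 without the 2 farthest arrays. Maoa had r = 0.22 and rho = 0.13 (adjusted permutation p = 0.553 and 0.682), and 0.23 without them. Among the 10 dorsal raphe arrays away from the common scaling state, r was 0.92 for Fev, 0.81 for Ddc, 0.79 for Slc18a2, 0.76 for Gch1, 0.69 for Maob and 0.09 for Maoa. The other state held only 2 dorsal raphe arrays. Without Sham AM replicate 2, the array high in cerebellar markers, r was 0.88 for Fev, 0.77 for Ddc, 0.80 for Slc18a2, 0.77 for Gch1, 0.70 for Maob and 0.21 for Maoa.

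**Figure D3:**
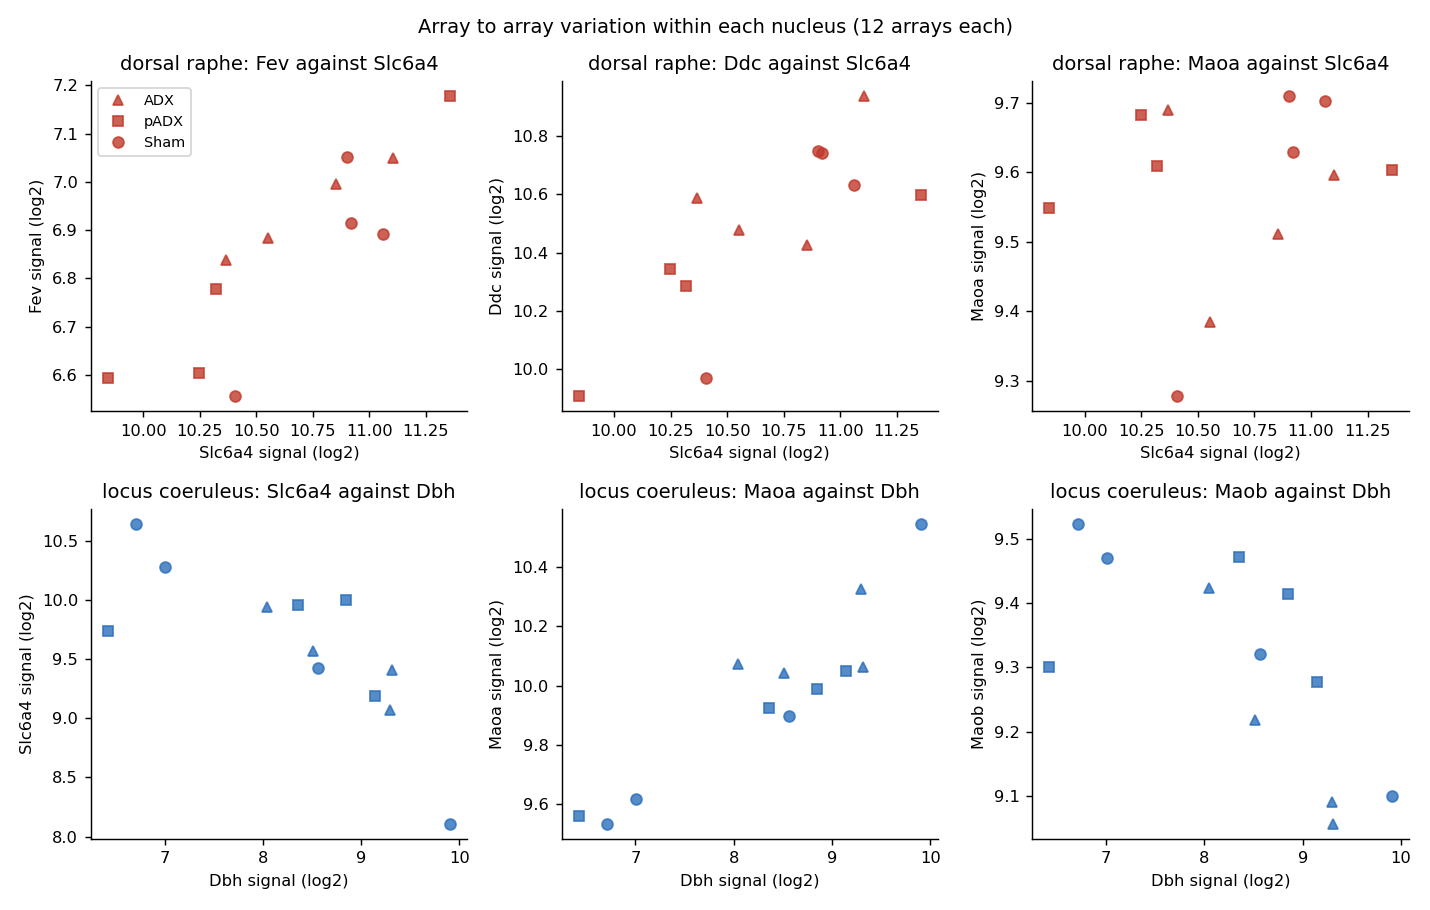
Top row, Fev, Ddc and Maoa against Slc6a4 on the 12 dorsal raphe arrays. Bottom row, Slc6a4, Maoa and Maob against Dbh on the 12 locus coeruleus arrays, with log2 signal on both axes and 1 symbol per treatment. Fev and Ddc climb with Slc6a4 (r = 0.87 and 0.78), Maoa climbs with Dbh (r = 0.92), and Slc6a4 and Maob descend with it (r = -0.77 and -0.69).

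In the locus coeruleus the oxidases parted again. Maoa varied closely with Dbh (r = 0.92, rho = 0.80, adjusted permutation p = 0.00022 and 0.0115), and r was 0.86 without the 2 arrays farthest from the median of Dbh. Maob varied inversely (r = -0.69, rho = -0.75, adjusted permutation p = 0.0239 and 0.0161), with -0.79 without the 2 farthest. Ddc had r = -0.55 and rho = -0.64 (adjusted permutation p = 0.0883 and 0.0467), and -0.63 without the 2 farthest. Slc18a2 had r = 0.22 and rho = 0.21 (adjusted permutation p = 0.553 and 0.564), and Gch1 r = -0.09 and rho = -0.29 (adjusted permutation p = 0.788 and 0.447). Without the 2 farthest, r was 0.26 for Slc18a2 and -0.10 for Gch1. Slc6a4 and Fev were added after these values were seen, with adjustment over 13. Slc6a4 had r = -0.77 and rho = -0.78 against Dbh (adjusted permutation p = 0.00637 and 0.0124), and -0.84 without the 2 farthest, and Fev had r = -0.43 and rho = -0.52 (adjusted permutation p = 0.213 and 0.11), and -0.38 without them. Among the 7 locus coeruleus arrays at the common scaling state, r against Dbh was 0.95 for Maoa, -0.68 for Maob, -0.79 for Slc6a4, -0.56 for Fev, -0.48 for Ddc, 0.10 for Slc18a2 and -0.12 for Gch1. The 5 arrays of the other state were too few for a value. Without ADX PM replicate 1, the array high in Ttr, r was 0.92 for Maoa, -0.69 for Maob, -0.77 for Slc6a4 and -0.52 for Fev.

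Maob was the member whose relations rested most on single arrays. Its relation to Dbh missed the threshold without locus coeruleus Sham AM replicate 1 (r = -0.62, adjusted permutation p = 0.0691), Sham AM replicate 2 (r = -0.64, adjusted permutation p = 0.0507) or Sham PM replicate 2 (r = -0.61, adjusted permutation p = 0.0724), and without normalization between arrays (r = -0.23, adjusted permutation p = 0.609). Its relation to Slc6a4 in the dorsal raphe missed it without pADX PM replicate 1 (r = 0.58, adjusted permutation p = 0.1) or Sham AM replicate 1 (r = 0.66, adjusted permutation p = 0.05). Ddc against Dbh passed without locus coeruleus pADX AM replicate 1 (r = -0.73, adjusted permutation p = 0.0171) or pADX PM replicate 2 (r = -0.66, adjusted permutation p = 0.0413).

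Over all 80 grouped arrays, the 10 genes whose signal was most like that of Slc6a4 were En2 (Pearson r = 0.995), Gata3, Fev (0.971), Gchfr (0.964), Irx2, Mab21l2, Spp1, Nkx6-1, Tal1 and Nefh (0.949). These correlations are descriptions, over points that share arrays and regions. En2, a homeobox factor of the midbrain and hindbrain, averaged 7.52 in the dorsal raphe, 6.81 in the locus coeruleus and 4.07 in the hypothalamus. Irx2 averaged 5.63 in the dorsal raphe and 5.65 in the locus coeruleus, so likeness to Slc6a4 over regions did not require a difference between the nuclei. The 5 genes most like Maob were Trim5, Rnd3, Ifitm3, Rnase4 and Rps6, each with a higher mean in the hypothalamus than in either nucleus.

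No member passed for ADX, pADX or time of day by limma at an adjusted p of 0.05. In the dorsal raphe the count was 0 of 44 tests (11 probe sets in 4 comparisons), and 0 of the 44 had an unadjusted p under 0.05. Over all probe sets, the share that passed there was 0.00644% for ADX vs Sham, 0.00322% for pADX vs Sham, 0.00322% for ADX vs pADX and 0.00966% for PM vs AM. Slc6a4 was 10.55 and 10.85 in ADX PM, 10.37 and 11.10 in ADX AM, 9.84 and 11.36 in pADX PM, and 10.25 and 10.32 in pADX AM. In Sham it was 10.90 and 10.41 in PM and 11.06 and 10.92 in AM. The 3 treatments overlapped, and pADX PM held both the lowest and the highest of the 12 dorsal raphe arrays. Slc6a4 differed by -0.10 between ADX and Sham (SE 0.32, adjusted p = 1) and by -0.38 between pADX and Sham (SE 0.32, adjusted p = 0.923). With Sham AM replicate 2, the dorsal raphe array high in cerebellar markers, left out, these differences were -0.07 and -0.35, and 0 of the 44 tests passed. Fev averaged 6.94 ± 0.10 in ADX, 6.79 ± 0.27 in pADX and 6.85 ± 0.21 in Sham (SD, n = 4 each).

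**Figure D4:**
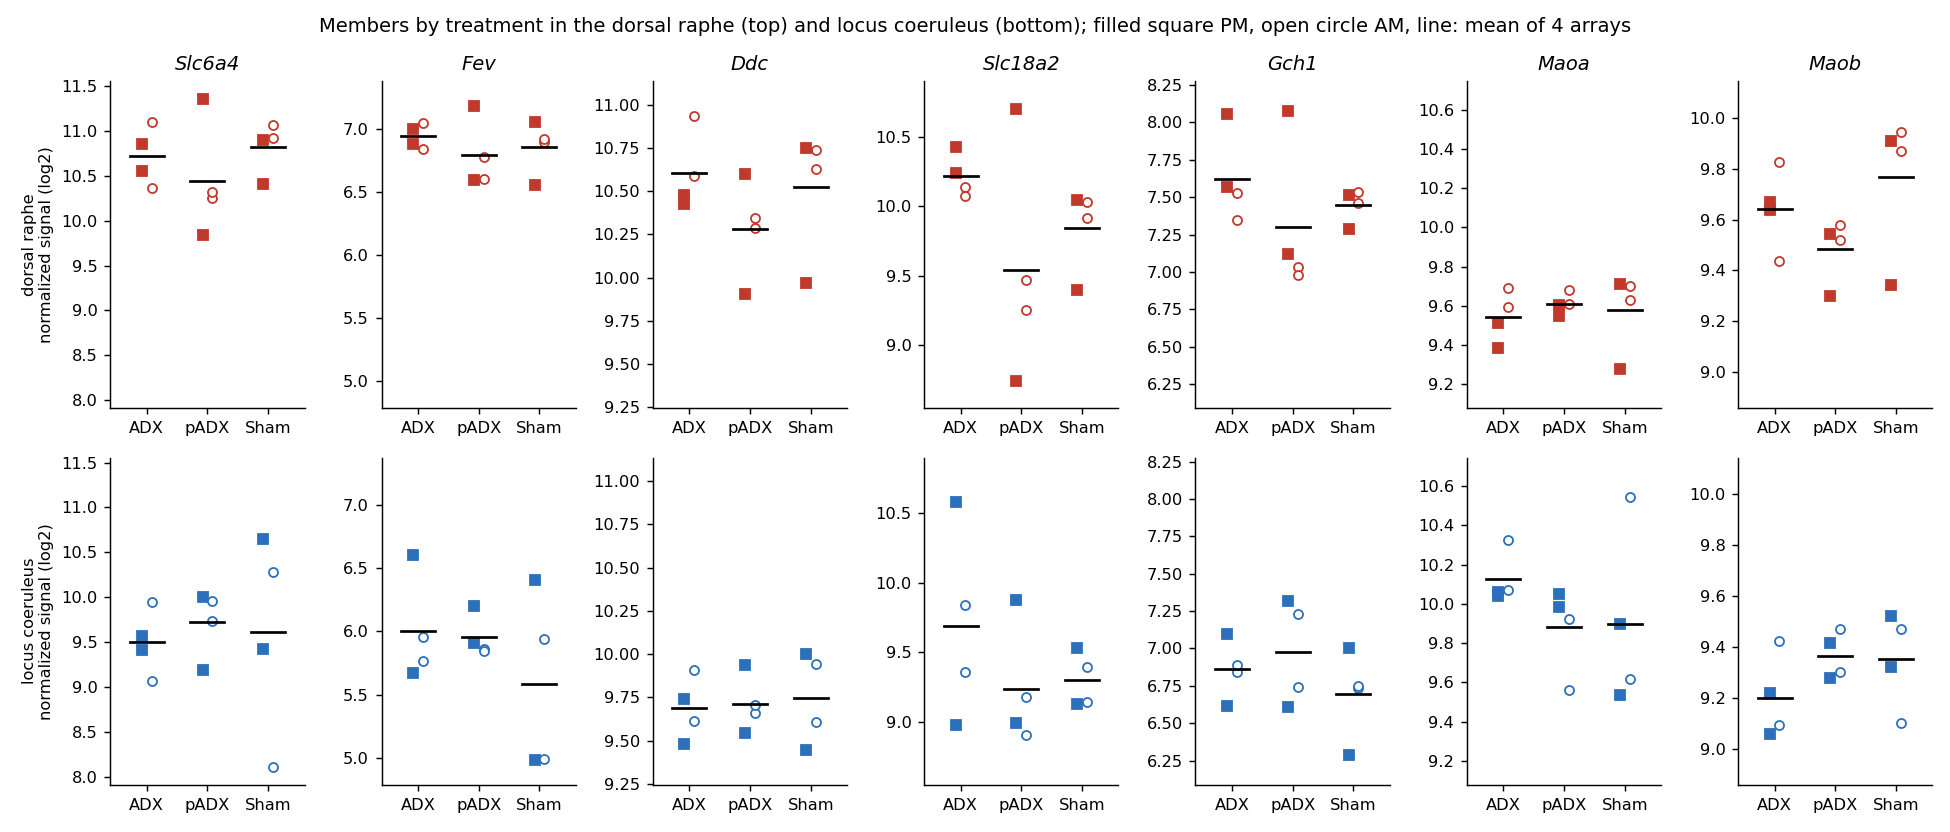
Normalized signal (log2, vertical axis) of the 7 genes in the dorsal raphe (top) and locus coeruleus (bottom) by treatment (horizontal axis), each point 1 array, filled squares PM, open circles AM, and the line the mean of 4 arrays. The treatments overlap for Slc6a4 in both nuclei, and the Sham arrays of the locus coeruleus spread from 8.11 to 10.65.

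Ddc averaged 10.61 ± 0.23 in ADX, 10.28 ± 0.29 in pADX and 10.52 ± 0.37 in Sham (SD, n = 4 each). Slc18a2 averaged 10.22 ± 0.15 in ADX, 9.54 ± 0.83 in pADX and 9.85 ± 0.31 in Sham (SD, n = 4 each). All 4 ADX arrays of Slc18a2 lay above all 4 Sham arrays, from 10.07 to 10.42 against 9.40 to 10.04, but the difference of 0.37 (SE 0.37) did not pass (limma adjusted p = 0.889). Its probe set 1384933_at overlapped, at 9.098 to 9.496 in ADX and 8.492 to 9.475 in Sham. So did 1369132_at, at 8.401 to 9.085 against 7.512 to 8.729. By the probe set standing for each gene, 5 of 98 ADX or pADX groups, by gene and region, did not overlap Sham. Such a share was not taken over all probe sets, so neither this count nor the separation of Slc18a2 can be called particular to the members. Gch1 averaged 7.63 ± 0.31 in ADX, 7.30 ± 0.52 in pADX and 7.45 ± 0.11 in Sham (SD, n = 4 each). Maoa averaged 9.55 ± 0.13 in ADX, 9.61 ± 0.06 in pADX and 9.58 ± 0.20 in Sham (SD, n = 4 each). Maob averaged 9.64 ± 0.16 in ADX, 9.48 ± 0.13 in pADX and 9.77 ± 0.29 in Sham (SD, n = 4 each), and its difference between pADX and Sham was -0.28 (SE 0.14, adjusted p = 0.913). Between PM and AM, the smallest adjusted p was that of Maoa, 0.448, with a difference of -0.15 (SE 0.07). Differences in the dorsal raphe ran from -0.38 to 0.78, and the highest was that of 1369132_at of Slc18a2 in ADX vs pADX (SE 0.36, adjusted p = 0.705).

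In the locus coeruleus 0 of 44 tests passed, also with ADX PM replicate 1, the array high in Ttr, left out, and in the full fit 0 had an unadjusted p under 0.05, with differences from -0.52 to 0.45. The share of all probe sets that passed there was 0% for ADX vs Sham, 0% for pADX vs Sham, 0.00322% for ADX vs pADX and 0% for PM vs AM. Slc6a4 averaged 9.50 ± 0.36 in ADX, 9.72 ± 0.37 in pADX and 9.62 ± 1.13 in Sham (SD, n = 4 each), so the Sham arrays spread more than the other groups. Maoa averaged 10.13 ± 0.13 in ADX, 9.88 ± 0.22 in pADX and 9.90 ± 0.46 in Sham (SD, n = 4 each). Whether a treatment change differed between the dorsal raphe and the locus coeruleus was tested by an interaction, and 0 of 22 passed, with 0 at an unadjusted p under 0.05. For ADX vs Sham that interaction passed for 0.0226% of all probe sets, and for pADX vs Sham for 0%. For Slc6a4 the interaction was 0.01 (SE 0.61) for ADX vs Sham and -0.49 (SE 0.61) for pADX vs Sham.

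Averaged over the 5 regions with 12 arrays each, 0 of 44 tests passed and 4 had an unadjusted p under 0.05. The share of all probe sets that passed was 0.132% for ADX vs Sham, 0.00644% for pADX vs Sham, 0.0483% for ADX vs pADX and 0.00966% for PM vs AM. The smallest limma adjusted p of a member was 0.393, for Ddc in ADX vs pADX, where the difference was 0.27 (SE 0.07). Slc6a4, averaged so, differed by -0.05 between ADX and Sham (SE 0.13, adjusted p = 1), and Maob by -0.05 (SE 0.04, adjusted p = 0.805).

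In the 5 regions outside the nuclei, 0 of 220 tests passed and 16 had an unadjusted p under 0.05. The share of all probe sets that passed for ADX vs Sham was 0.0161% in the hypothalamus, 0.0226% in the septum, 0.0129% in the amygdala, 0.00322% in the hippocampus and 0.0161% in the frontal cortex. For pADX vs Sham it was 0.0193% in the hippocampus and 0% in the other 4, and for ADX vs pADX 0.00966% in the hypothalamus, septum and amygdala, 0.029% in the hippocampus and 0.00644% in the frontal cortex. For PM vs AM it was 0.00322% in the hypothalamus and 0% in the other 4. The smallest adjusted p of a member belonged to Slc18a2 in the septum. Its probe set 1369132_at was 5.22 and 4.73 in ADX PM and 4.67 and 5.58 in ADX AM, against 5.59 and 6.39 in Sham PM and 5.72 and 6.33 in Sham AM. All 4 ADX arrays lay below all 4 Sham arrays (at most 5.58 against at least 5.59), and the difference of -0.96 (SE 0.27) had a limma adjusted p of 0.259. The other 2 probe sets pointed the same way, with -1.02 (SE 0.37, adjusted p = 0.38) for 1384933_at and -0.64 (SE 0.29, adjusted p = 0.495) for 1369131_at. Their ADX and Sham ranges overlapped, with ADX up to 5.885 and 7.336 and Sham from 5.819 and 6.791.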

How the data were processed

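Total RNA of 7 rat brain regions was measured on 82 arrays of 31099 probe sets. The authors deposited intensities on a linear scale, with no statement here of software, background correction or scaling. All 82 arrays were quantile normalized together, signals under 16 were raised to 16, and log2 was taken, which left 27.5% of values at the floor; 57 control probe sets were left out. Linear models from limma 3.58.1, run under R 4.3.3 with a trended eBayes step, fitted region with 6 combinations of treatment and time over 80 arrays, treatment and time within each region, the same on 12 units averaged over 5 regions, and the interaction between the 2 nuclei. Benjamini-Hochberg adjusted p-values over all 31042 probe sets passed under 0.05. Of the probe sets, 20826 carried 1 symbol. Relations used 100000 permutations (Python 3.11.15, SciPy 1.17.1).

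All member probe sets, a list of 30 pathway genes by counts, and the 10 and 5 genes most like Slc6a4 and Maob were named. Members, lists and tests were chosen with earlier results of these data known, so they are no independent evidence. The fits were run on simulated data with known changes. Those values were drawn independently for each array with no floor applied, so the floor and any shared animals or pools were not covered. Other scalings, floors, filters, terms for scaling state and RNA quality, a replicate block and single arrays left out were tried. The 2 frontal cortex arrays without a treatment label were left out of all fits. For arrays, their number limits the precision.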

Additional observations from a re-analysis of the deposited data

Results flagged for a closer look

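In 92 sets, each 1 gene on the 4 arrays of 1 region and treatment, the highest or lowest array was set against the others. The measure was its gap to the nearest array as a share of the set's range. Sets with a value at the floor were left out. In 5 sets the gap exceeded Dixon's 95% critical value for 4 arrays. Chance alone gives about 1 in 20 independent sets, but sets of different genes share arrays and are not independent. Dorsal raphe Sham PM replicate 2 stood apart for 2 members. Its Ddc was 9.97, with the other Sham arrays from 10.63 to 10.75, and its Maob was 9.34, with the others from 9.87 to 9.95. Its Slc6a4 of 10.41 and Fev of 6.56 were also the lowest among the 4 Sham arrays. It is 1 of the 2 dorsal raphe arrays at the common trimmed mean. Gch1 in dorsal raphe pADX PM replicate 2 was 8.08, with the other pADX arrays from 6.98 to 7.12, and that array also held the highest Slc6a4 and Fev of the 12, 11.36 and 7.18. Maoa in locus coeruleus ADX AM replicate 2 was 10.33, with the others from 10.04 to 10.07. Slc18a2 in amygdala ADX PM replicate 2 was 5.38, with the others from 4.24 to 4.42.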

How the results depend on the processing

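Alternatives changed the scaling, the floor, the offset, a filter, the trend, added terms, or left out arrays. Counts of member probe sets that passed stayed within 1.5 times in 23 of 23 settings for the F test (8 to 11). They did so in 22 of 22 for the dorsal raphe against the 5 other regions (38 to 53), and in 35 of 37 for the dorsal raphe against the locus coeruleus. For the first 2 results, the lowest values came from a filter at the 40th percentile, under which fewer probe sets are tested. That filter left out Fev and the second probe sets of Ddc and Gch1. Between the dorsal raphe and the locus coeruleus, 0 passed among arrays at the common trimmed mean and 2 among arrays away from it. Fewer arrays are fitted there, and 8 passed in all. Over all probe sets the counts were 25, 97 and 1988. Without normalization between arrays, 4 member tests passed across regions, 3 in the dorsal raphe and 2 in the locus coeruleus, all in ADX vs Sham. Of all 31042 probe sets, 13715, 7729 and 4515 then passed for ADX vs Sham, so these calls were not particular to the members. The median of all probe sets in ADX vs Sham shifted by -0.21, -0.44 and -0.42. Fev in the dorsal raphe reversed to -0.47 (limma adjusted p = 0.0491), close to the shift there. With the scaling state as a term, 2 passed in the locus coeruleus, both of the Gch1 probe set near the floor, 1368503_at. They were in ADX vs Sham and ADX vs pADX, which then passed there for 181 and 213 of all probe sets. In the locus coeruleus 0 of 4 ADX, 3 of 4 pADX and 4 of 4 Sham arrays were at the common state. The term thus rested on a single array, pADX AM replicate 2, and state and ADX vs Sham cannot be told apart there without it. Outside the nuclei, leaving out single arrays gave 0 to 2; the 2 came without pADX PM replicate 1, which leaves 1 pADX array in the hippocampus, assumed to vary like the others. Of 292 values of ADX or pADX vs Sham in the dorsal raphe, 16 had the other sign, of which that of Fev above passed. Over all probe sets, ADX vs Sham across regions passed for 41, with 2 to 13715 under the alternatives, and the dorsal raphe against the locus coeruleus for 1988, with 25 to 2631; the cause was not tested. Under floors and offsets the first Slc18a2 probe set passed between the nuclei (adjusted p = 0.0495 and 0.0425), and 1384933_at did not with the scaling state as a term (0.138) or without normalization (0.0848). With a replicate block the calls numbered 11 for the F test, 8 between the nuclei, 53 against the other regions and 0 for treatment or time, as without it. Deviations of same-numbered arrays correlated from -0.14 to 0.25 in the dorsal raphe, -0.15 to 0.10 in the locus coeruleus and -0.02 to 0.20 between the nuclei. Such values cannot tell whether same-numbered arrays share an animal or pool, since sharing need not make deviations alike. Leaving out the hippocampus pADX arrays, chosen after seeing the data, gave 8 calls between the nuclei.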
